A study of Homo sapiens with 10 samples.

Results

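The microvillus core and brush border linker genes are 10 genes chosen by symbol, out of 60554 genes listed: VIL1, ESPN, PLS1, EPS8, MYO1A, MYO7B, CDHR2, CDHR5, USH1C and ANKS4B. They were followed in 10 bulk RNA libraries of Caco-2, a human colon carcinoma cell line that can build an enterocyte-like brush border in culture. All groups were derived from a monoclonal Caco-2 clone that stably carries the CRISPR interference protein dCas9-KRAB, a Cas9 that binds DNA without cutting it, fused to a repressor domain, selected with puromycin. The gCtl cells (5 libraries) also received an empty guide plasmid, and the g1 cells (3 libraries) and g2 cells (2 libraries) received 1 of 2 guide RNAs against the long non-coding RNA LHFPL3-AS2, all by lentivirus with a hygromycin gene on the guide plasmid. The labels give neither the time in culture nor whether libraries of a group came from separate cultures, so p-values measure the spread between these libraries, which may be technical. The starting line is 1 clone, and the labels do not say whether the guide-carrying lines were clones too.

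Microvilli of enterocytes are finger-like protrusions built on a core of parallel actin filaments. The bundling proteins villin (VIL1), espin (ESPN) and fimbrin (PLS1, plastin 1) hold the filaments together, EPS8 sits at the tips, and the motor MYO1A links the core to the membrane along the shaft. The tips of neighbouring microvilli are joined by the intermicrovillar adhesion complex, in which the protocadherins CDHR2 and CDHR5 reach across the gap, the scaffolds USH1C (harmonin) and ANKS4B bind their tails, and the motor MYO7B carries the complex toward the tips. This packing and anchoring accompanies the maturation of enterocytes in the intestine and of Caco-2 cells after confluence. The paper that reported these libraries states that the sequenced cells were seeded as monolayers. It describes guide cells as less confluent than gCtl cells, with rounding and clumping, although its supplementary methods state full confluency in all experiments. Those methods also place the experiments some days after seeding, in a state of intermediate differentiation, without naming the day for these libraries. The part of growth state in the results below was not tested.

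Between 3838803 and 5674360 estimated counts were available per library in gCtl, 4649985 to 8730468 in g1, and 6130698 and 7325087 in g2. Mitochondrial transcripts held 18.3% to 23.97% of the counts in gCtl, 19.0% to 20.6% in g1, and 16.8% and 12.0% in g2. LHFPL3-AS2, the RNA the guides target, was not lower in libraries labelled as carrying a guide: it averaged 3.45 ± 1.63 RPM there (SD, n = 5; counts scaled by the library total) against 2.23 ± 1.17 RPM (SD, n = 5) for gCtl (two-sided exact permutation, p = 0.190), on 4.39 to 44.0 counts per library. The paper that reported these libraries describes depletion of LHFPL3-AS2 with both guides, measured by qPCR. Of 13 intestinal epithelial markers 10 passed the filter on low values and none was at 0 in all libraries, with a summed level of 2143 to 2916 RPM in gCtl and 1987 to 2460 RPM with the guides. The brush border enzymes ALPI and SI and the apolipoprotein APOA4, all markers of mature enterocytes, were below the filter. SI held 2 counts in 1 gCtl library and 0 in the other 4, and 6 to 25 counts in each guide library (0.0721 ± 0.161 RPM against 1.63 ± 0.733 RPM, SD, n = 5 each). APOA4 also averaged higher with the guides (means of 0.1096 RPM in gCtl and 0.567 RPM with the guides), on 3 and 19 counts in all, with 0 in g2 replicate 2. The mean of ALPI went the other way, at 0.488 RPM in gCtl and 0.271 RPM with the guides, on 12 and 8 counts in all. The differences in these low genes were not tested. The enterocyte genes APOA1 and FABP1, which passed the filter, did not average higher with the guides. APOA1 averaged 450.1 RPM in gCtl and 399.7 RPM with the guides, and FABP1 16.53 and 14.97 RPM. The guides differed for FABP1, at a mean of 8.89 RPM in g1 and at 38.5 and 9.69 RPM in g2. KRT20, another epithelial marker that passed the filter, went up, averaging 2.81 RPM in gCtl, 3.14 RPM in g1 and 9.47 RPM in g2. Its log2 fold change was 1.91 ± 0.40 (SE) with g2 (edgeR adjusted p = 0.00307) and 0.26 ± 0.40 with g1 (edgeR adjusted p = 0.690). Of 8 mesenchymal markers 2 passed, summing to 17.6 to 39.0 RPM in gCtl and 8.002 to 19.6 RPM with the guides (PDGFRA alone averaged 20.0 ± 7.30 RPM in gCtl and 4.17 ± 3.76 RPM with the guides, SD, n = 5 each). Of 6 blood and endothelial markers 1 passed, summing to 2.68 to 5.39 RPM in gCtl and 2.72 to 12.3 RPM with the guides. The part of the mitochondrial share and of these markers in the results below was not tested.

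With both guides together, 3 of the 9 members tested rose against gCtl and 0 fell. They were the motor MYO1A, the tip protein EPS8 and the adhesion scaffold ANKS4B, and for these 3 all guide libraries lay above all gCtl libraries, as for 7.08% of all genes tested. Levels below are TMM-normalized CPM (counts scaled by library total and a library factor), and a gene was called where the adjusted p was at most 0.05 and the fitted fold at least 1.5. Of the 11640 protein-coding genes tested, 19.2% were called in this comparison, 8.14% higher and 11% lower. Calls that were higher made up 42.5% of all calls, and 30.6% where libraries were scaled by their totals alone. In bulk libraries fewer cells of a type and less RNA per cell cannot be told apart. No member reached an unadjusted p under 0.05 in the lower direction, and DESeq2 and limma also called 0 members lower. The median log2 fold change was 0.55 over the 9 members and 0.02 over all genes tested. MYO7B did not pass the filter, and CDHR2 passed it only through 2 libraries of g1, so this median is a description.

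The membrane-linking motor MYO1A had the largest log2 fold change of the 9 members tested. Its gene (ENSG00000166866.12) lies on the minus strand at chr12:57028517-57051198 (GRCh38). MYO1A stood at 8.50, 6.06, 8.55, 5.78 and 6.16 CPM in the 5 gCtl libraries. It stood at 25.5, 15.4 and 21.6 CPM in g1, and at 34.1 and 39.4 CPM in g2. No guide library came near the gCtl range, and both g2 libraries were above all g1 libraries. The mean was 7.01 ± 1.39 CPM (SD, n = 5) in gCtl and 27.2 ± 9.61 CPM (SD, n = 5) with the guides, a fitted fold of 3.88 (log2 fold change 1.96 ± 0.25 SE, edgeR adjusted p = 0.000153). The transcript MYO1A-001, with 28 exons, held 91.8% of the gene's counts, and MYO1A-009, annotated as a target of nonsense-mediated decay and ending 101 bases from the gene's 3' end, held 8.19%. The share of MYO1A-009 was 20.3% in gCtl, 0% in g1 and 10.7% in g2, on 85.1 estimated counts in all. An exon stretch of 112 bases is shared with TAC3 on the same strand, which held 12 counts in all 10 libraries.

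The scaffold ANKS4B (ENSG00000175311.6; chr16:21233665-21253845, plus strand) has 1 listed transcript of 2 exons. ANKS4B varied little among the gCtl libraries, at 12.7, 13.6, 14.1, 13.0 and 15.4 CPM. It reached 23.4, 25.4 and 20.4 CPM in g1 and 26.5 and 34.7 CPM in g2. Every guide library thus exceeded every gCtl library, and the g2 libraries again exceeded the g1 libraries. The means were 13.7 ± 1.07 CPM (SD, n = 5) in gCtl and 26.1 ± 5.33 CPM (SD, n = 5) with the guides, for a log2 fold change of 0.91 ± 0.17 (SE, edgeR adjusted p = 0.0018).

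Promoters were looked up because MYO1A and ANKS4B rose with each guide. RefSeq promoter sequence (GRCh38.p14) was matched for 6 of the 10 members, at 12 start sites; VIL1, ESPN, EPS8 and CDHR5 are named only. The 250 bases before a MYO1A start, chr12:57050130-57050379 on the minus strand, and the 216 bases before the ANKS4B-001 start, chr16:21233449-21233664 on the plus strand, are shown 5' to 3'. Capitals mark GGACTTTG, the reverse of the HNF4 motif CAAAGTCC, in MYO1A and ATTAAC, the reverse of the HNF1 motif GTTAAT, in ANKS4B.
MYO1A: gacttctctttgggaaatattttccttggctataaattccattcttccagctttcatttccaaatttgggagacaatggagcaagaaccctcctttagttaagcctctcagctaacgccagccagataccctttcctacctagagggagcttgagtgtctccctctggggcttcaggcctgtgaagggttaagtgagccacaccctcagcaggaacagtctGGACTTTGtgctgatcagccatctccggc
ANKS4B: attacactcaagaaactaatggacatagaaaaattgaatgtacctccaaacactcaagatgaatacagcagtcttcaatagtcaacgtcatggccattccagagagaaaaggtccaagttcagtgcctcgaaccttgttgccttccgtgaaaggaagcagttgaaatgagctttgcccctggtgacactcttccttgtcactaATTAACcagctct

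The MYO1A match begins 29 bases before a start that lies 12 bases from the start of MYO1A-001, and the ANKS4B match begins 13 bases before the start of ANKS4B-001, or 47 bases before the RefSeq start, which lies 34 bases further into the gene. Searched on both strands, CAAAGTCC was present in 1.02% of 35116 promoter windows of 250 bases before the RefSeq start and in 2 of the 12 member windows, the other being MYO7B. That MYO7B start lies 84343 bases from the start of MYO7B-002, its transcript with the most counts. The MYO7B window 21 bases from that transcript's start had no match. The HNF1 letters GTTAAT were present in 6.23% of windows and in 2 of 12, the other being a downstream start of CDHR2. The CDX letters TTTATG (9.64% of windows) and the GATA letters AGATAA (9.17%) were each found in 1 of 12, both at PLS1, and the TCF/LEF letters ATCAAAG (2.26%) in 0 of 12. The PLS1 start with the CDX letters lies 27006 bases from the start of PLS1-010, its transcript with the most counts. These matches are letters in a window and were not measured as bound sites.

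EPS8, which caps and bundles actin at microvillus tips, rose at the level of the gene, with a large share of its counts on transcripts that are not annotated as coding. The gene (ENSG00000151491.12) lies on the minus strand at chr12:15620158-15882329. EPS8 stood at 79.2, 59.7, 46.0, 59.2 and 43.6 CPM in gCtl. The levels were 121, 99.6 and 170 CPM in g1 (169.7 in the highest library) and 118 and 83.7 CPM in g2. The 5 guide libraries were above the 5 gCtl libraries, although the lowest g2 library and the highest gCtl library were close. The means were 57.6 ± 14.2 CPM (SD, n = 5) in gCtl and 118 ± 32.4 CPM (SD, n = 5) with the guides (log2 fold change 1.05 ± 0.20 SE, edgeR adjusted p = 0.00212).

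The short transcript EPS8-013, annotated as a retained intron, has 566 bases and ends 37736 bases before the 3' end of the gene, and held 42.7% of EPS8 counts. Its share was similar in the groups, at 40.3% in gCtl, 43.9% in g1 and 42.9% in g2. The coding transcript EPS8-003 and the nonsense-mediated decay transcript EPS8-002, which end together at the 3' end of the gene, held 29.9% and 19.1%. Transcripts ending within 5000 bases of the gene's 3' end held 53.1% of the counts. These summed to 42.8, 34.1, 27.5, 32.3 and 26.5 CPM in gCtl, to 60.04, 48.1 and 90.0 CPM in g1, and to 67.4 and 39.6 CPM in g2. On these transcripts 4 of 5 guide libraries were above all gCtl libraries. On the transcripts ending further inside all 5 were above (means of 24.9 CPM in gCtl, 64.0 in g1 and 47.5 in g2). Both parts add up to the gene level that was already called, so the split is a description and no further support. With only the transcripts annotated as protein-coding summed, an alternative chosen after seeing the data, EPS8 was no longer called: the log2 fold change was 0.54 with both guides together (edgeR adjusted p = 0.0863), 0.45 with g1 (edgeR adjusted p = 0.21) and 0.67 with g2 (edgeR adjusted p = 0.089). Estimated counts divide a read among transcripts that share its sequence, so the split between EPS8-002 and EPS8-003, which moved from 9.94% and 41.1% in gCtl to 26.4% and 19.9% in g1, is uncertain.

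The bundlers VIL1 and ESPN were not called in any comparison. VIL1 (ENSG00000127831.10; chr2:218419092-218453295, plus strand) was at 155, 167, 142, 152 and 121 CPM in gCtl, at 146, 162 and 179 CPM in g1, and at 205 and 149.97 CPM in g2. The groups overlapped, and the log2 fold change with both guides together was 0.19 (95% confidence interval -0.10 to 0.48, edgeR adjusted p = 0.319). A change of 1.5-fold therefore lay outside this interval. It also lay outside the interval with g1 (log2 fold change 0.14, 95% confidence interval -0.17 to 0.45). With g2 a rise of 1.5-fold lay inside the interval (log2 fold change 0.27, 95% confidence interval -0.09 to 0.62). Within the gene, the shorter transcript VIL1-002, which ends 3771 bases before the gene's 3' end, held 96.7 and 307 estimated counts in the g2 libraries, or 18.5% of VIL1 counts there, and 0 in all gCtl and g1 libraries. This shift was picked out after its values were seen and was not tested. The 3' part of VIL1 shares 3045 exon bases with USP37 on the opposite strand, which held 3276 counts, and whether counting used the strand is not given in the sources used here.

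ESPN (ENSG00000187017.14; chr1:6424776-6461367, plus strand) rested on 27.5 to 122 counts per library. It was at 7.72, 13.0, 9.11, 6.61 and 7.004 CPM in gCtl, at 20.3, 12.2 and 10.5 CPM in g1 and at 8.35 and 12.6 CPM in g2. A single g1 library was above the gCtl range. The log2 fold change was 0.55 with both guides together (95% confidence interval -0.00 to 1.11, edgeR adjusted p = 0.134) and 0.71 ± 0.28 (SE) with g1 (edgeR adjusted p = 0.0832). With a trend on transcript length removed, ESPN was called higher with both guides together (log2 fold change 0.78, edgeR adjusted p = 0.0376) and with g1 (0.92, edgeR adjusted p = 0.0266). Its processed transcript ESPN-008, without a coding annotation, held 61.4% of the counts, and the near-identical pseudogene ESPNP was at 0 in all libraries. ESPN shares 383 exon bases with TNFRSF25 on the opposite strand, which held 441 counts. As for VIL1, whether counting used the strand is not given, so part of the ESPN counts may belong to TNFRSF25.

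Harmonin and the protocadherins of the adhesion complex were not called with both guides together. USH1C (ENSG00000006611.15; chr11:17493895-17544416, minus strand) was at 36.0, 49.0, 44.1, 42.6 and 51.5 CPM in gCtl, at 51.7, 56.1 and 73.1 CPM in g1 and at 50.9 and 91.7 CPM in g2. All 3 g1 libraries and 1 of the 2 g2 libraries were above the gCtl range, the lowest g1 library by a narrow margin. With both guides together the log2 fold change was 0.53 ± 0.17 (SE, edgeR adjusted p = 0.0360), a fitted fold of 1.45, below the 1.5-fold minimum. It passed that minimum and was called without g1 replicate 1 (0.61, edgeR adjusted p = 0.0257), without g2 replicate 1 (0.60, edgeR adjusted p = 0.0222) and with protein-coding transcripts only (0.62, edgeR adjusted p = 0.0281).

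CDHR5 (ENSG00000099834.18; chr11:616565-626078, minus strand) was at 14.7, 10.6, 21.8, 19.0 and 20.8 CPM in gCtl, at 20.8, 22.4 and 39.2 CPM in g1 and at 20.6 and 22.8 CPM in g2. Apart from the highest g1 library, the guide libraries stood close to the upper gCtl libraries. Its log2 fold change with both guides together was 0.54 (95% confidence interval 0.05 to 1.02, edgeR adjusted p = 0.0995).

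CDHR2 (ENSG00000074276.10; chr5:176542511-176595974, plus strand) was low, on 5 to 59 counts per library. It was at 2.25, 2.02, 1.92, 1.93 and 1.76 CPM in gCtl, at 3.83, 1.06 and 7.18 CPM in g1 and at 2.15 and 1.16 CPM in g2. The g1 libraries thus held both the lowest and the highest CDHR2 level of the series. The interval of the difference with both guides together was wide (log2 fold change 0.68, 95% confidence interval -0.35 to 1.71, edgeR adjusted p = 0.327).

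MYO7B (ENSG00000169994.18; chr2:127535802-127637729, plus strand), the motor of the adhesion complex, held at most 1 count in any library. It had 2 counts in gCtl, 0 in g1 and 2 in g2 in all, and a count of 0 allows up to 3 counts per library. A difference was not detectable at this depth (p = 0.683 by exact permutation of log2(RPM + 1), two-sided, where 0.00794 is the lowest value the design can give).

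Taken guide by guide, 4 of the 9 members tested were called with g1, 3 higher and 1 lower, and 4 with g2, all higher. Among all genes tested 16.7% were called with g1, 6.81% higher and 9.91% lower. With g2 23.7% were called, 10.7% higher and 13% lower. These comparisons share the 5 gCtl libraries, so they are given side by side and g2 is compared with g1 directly below. MYO1A rose with g1 (log2 fold change 1.58 ± 0.21 SE, edgeR adjusted p = 0.000228) and with g2 (2.39 ± 0.23, edgeR adjusted p = 7.9e-06). ANKS4B also rose with g1 (0.73 ± 0.17, edgeR adjusted p = 0.00769) and with g2 (1.15 ± 0.19, edgeR adjusted p = 0.000592). EPS8 rose with g1 (1.18 ± 0.20, edgeR adjusted p = 0.00117) and with g2 (0.82 ± 0.23, edgeR adjusted p = 0.0177), the g2 call being lost without g2 replicate 1 (0.54, edgeR adjusted p = 0.168). The libraries of EPS8, MYO1A, ANKS4B and USH1C did not overlap gCtl in g1 and were higher, as for 13% of all genes tested, and PLS1 lay lower without overlap, as for 13.5%. The same held upward in g2 for PLS1, EPS8, MYO1A and ANKS4B, as for 18.2% of all genes tested.

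**Figure D1:**
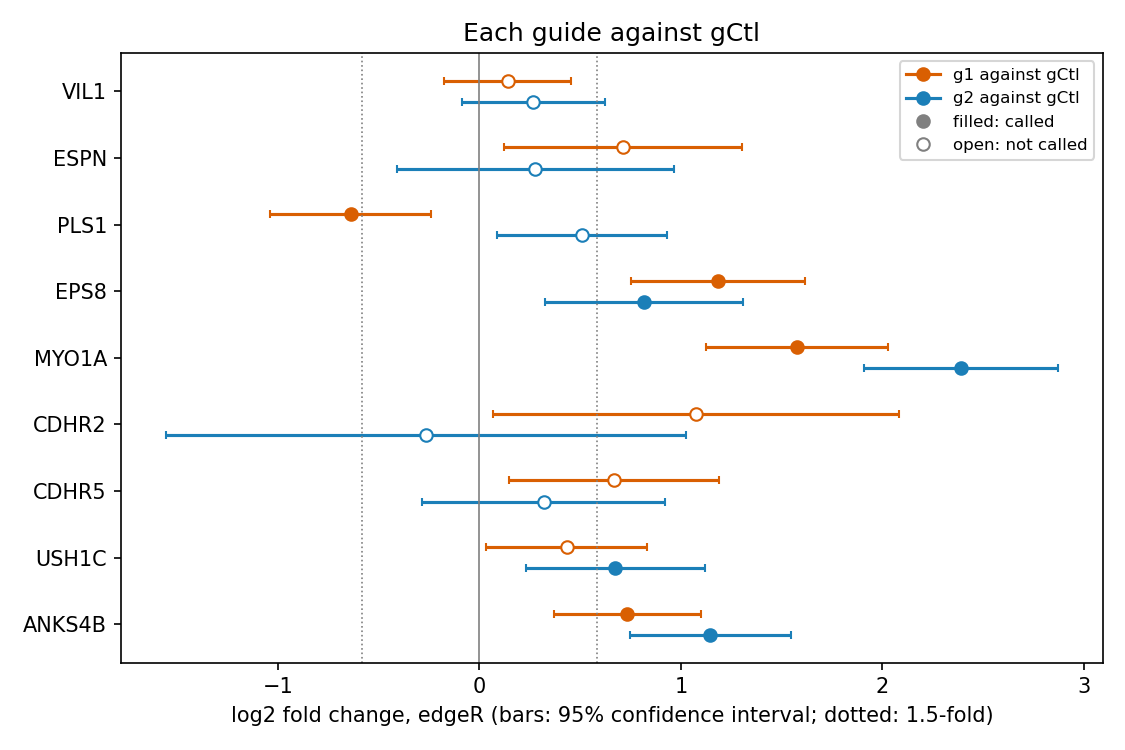
Log2 fold change of each member against gCtl in the fit with 3 groups, for g1 (orange) and g2 (blue), with bars for the 95% confidence interval, filled points for called genes and dotted lines at 1.5-fold. MYO1A, EPS8 and ANKS4B are filled on the right for both guides, while PLS1 is filled on the left for g1 and open on the right for g2.

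USH1C was called higher with g2 (log2 fold change 0.68 ± 0.21 SE, edgeR adjusted p = 0.0276) but not with g1 (0.43 ± 0.19, edgeR adjusted p = 0.117). The g2 call rests on its second library: without g2 replicate 2 the log2 fold change was 0.19 (edgeR adjusted p = 0.616). It was also lost without gCtl replicate 1 (edgeR adjusted p = 0.0564), 3 (0.0512) or 4 (0.0552). The difference between the guides was 0.24 (95% confidence interval -0.25 to 0.74, edgeR adjusted p = 0.594). VIL1, ESPN, CDHR2 and CDHR5 were called with neither guide. For g1, ESPN was called without gCtl replicate 2 (0.91, edgeR adjusted p = 0.0391), and CDHR5 with no filter on low values (0.67, edgeR adjusted p = 0.0396). For CDHR2 the log2 fold change was 1.07 ± 0.48 (SE) with g1 (edgeR adjusted p = 0.123), which rests on the libraries that carried it past the filter, and -0.26 ± 0.61 with g2 (edgeR adjusted p = 0.782).

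Fimbrin, PLS1 (ENSG00000120756.12; chr3:142596387-142713664, plus strand), was the member on which the guides differed. PLS1 was at 20.2, 15.3, 17.0, 16.3 and 21.8 CPM in gCtl. It was at 10.9, 11.2 and 12.7 CPM in g1 and at 27.4 and 24.3 CPM in g2. The g1 libraries were all below the gCtl range and the g2 libraries both above it. PLS1 fell with g1 by 0.64 ± 0.19 (SE) on the log2 scale (edgeR adjusted p = 0.0260), a fitted fold of 1.56. With g2 the log2 fold change of 0.51 ± 0.20 (SE) did not pass (edgeR adjusted p = 0.0714), though it was called with a trend on transcript length removed (0.64, edgeR adjusted p = 0.0305) and without gCtl replicate 5 (0.59, edgeR adjusted p = 0.0408). With both guides together the log2 fold change was -0.07 (95% confidence interval -0.62 to 0.48, edgeR adjusted p = 0.878), an average over libraries that lay on either side of gCtl.

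Compared directly, PLS1 was higher in g2 than in g1 by 1.15 ± 0.22 (SE) on the log2 scale (95% confidence interval 0.68 to 1.62, edgeR adjusted p = 0.00781), and it was the member called of the 9 tested. Of all genes tested 4.97% were called in this comparison, 1.55% higher in g2 and 3.42% lower. MYO1A (log2 fold change 0.81 ± 0.25 SE, edgeR adjusted p = 0.0666) and ANKS4B (0.41 ± 0.21, edgeR adjusted p = 0.269) were higher in both g2 libraries than in all g1 libraries without passing the test, and 15.6% of all genes tested were without overlap in that direction. DESeq2 called MYO1A as well (adjusted p = 0.0374). PLS1 stayed called in this comparison without each of the 10 libraries in turn, at log2 fold changes of 1.07 to 1.25.

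The g1 decrease of PLS1 was close to the thresholds. It was no longer called without gCtl replicate 1 (edgeR adjusted p = 0.0553), without gCtl replicate 5 (fold below 1.5), without g1 replicate 1 (edgeR adjusted p = 0.0867) or without g1 replicate 2 (edgeR adjusted p = 0.0787). The same held with a trend on transcript length removed (edgeR adjusted p = 0.0544) and with protein-coding transcripts only (edgeR adjusted p = 0.0518). Transcripts ending within 5000 bases of the gene's 3' end held 40.3% of PLS1 counts. Their level was 5.25 to 11.4 CPM in gCtl and 4.63 to 4.73 CPM in g1, and 13.4 and 5.89 CPM in g2. The transcripts ending further inside were at 9.10 to 11.2 CPM in gCtl, 6.32 to 7.99 CPM in g1, and 13.9 and 18.4 CPM in g2. Both parts were below gCtl in all g1 libraries, whereas in g2 only the inner part was above gCtl in both libraries. The largest inner transcripts, PLS1-010 with 30.2% and PLS1-005 with 16.1% of the counts, end 42547 and 42545 bases before the gene's 3' end, and the estimate moved between them from library to library.

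Paralogs of the members were read from the same fits. PLS3, a plastin found in many tissues, fell by 0.61 ± 0.14 (SE) on the log2 scale with both guides together (edgeR adjusted p = 0.00708), from 76.2 ± 4.58 CPM (SD, n = 5) in gCtl to 49.9 ± 9.17 CPM (SD, n = 5). All 5 guide libraries of PLS3 were below gCtl, and the share of all genes lying lower in this way was not counted. The fitted fold of 1.53 was close to the 1.5-fold minimum, and this call was not put through the alternatives. By guide, PLS3 was called lower with g2 (-0.84 ± 0.17, edgeR adjusted p = 0.00264) and not with g1, where the fold was 1.39. LCP1, the leukocyte plastin, and MYO7A, the inner ear relative of MYO7B, were below the filter. The villin relatives VILL (log2 fold change -0.35, edgeR adjusted p = 0.556) and AVIL (0.38, edgeR adjusted p = 0.467) were not called. With both guides together EPS8L3 was called higher (0.87 ± 0.29 SE, edgeR adjusted p = 0.0430), a call lost under 13 of 23 alternatives. EPS8L1 (-0.44, edgeR adjusted p = 0.284) and EPS8L2 (0.50, edgeR adjusted p = 0.144) were not called in that comparison. By guide, EPS8L3 was called with g2 (1.30 ± 0.31, edgeR adjusted p = 0.00698) and not with g1 (0.49 ± 0.29, edgeR adjusted p = 0.251). EPS8L2 was at 24.3 to 31.5 CPM in gCtl, at 19.4 to 38.1 CPM in g1, and at 44.3 and 63.2 CPM in g2. It was called higher in g2 than in gCtl (0.99 ± 0.22, edgeR adjusted p = 0.00428) and than in g1 (0.93 ± 0.24, edgeR adjusted p = 0.0368). With g1 it was not called (0.06 ± 0.20, edgeR adjusted p = 0.865).

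Other genes of the brush border and of its control were described by lists, with counts for both guides together to be read against the 8.14% of all genes that were called higher and the 11% called lower. Of 8 tested actin and bundler relatives (10 listed), 2 rose and 2 fell, with a median log2 fold change of -0.02. The actin-severing protein SCIN rose (0.93 ± 0.23, edgeR adjusted p = 0.0105), and the cytoplasmic actin ACTG1 fell by 0.95 ± 0.21 on the log2 scale (edgeR adjusted p = 0.00562), from 608 ± 138 CPM to 315 ± 102 CPM (SD, n = 5 each). Of 10 tested EPS8 and IRSp53 family proteins (11 listed), EPS8L3 alone rose and 0 fell (median -0.17), with 2 at an unadjusted p under 0.05 in the lower direction and 0 called lower by DESeq2 or limma. Of 5 tested further adhesion complex and Usher proteins (12 listed), 0 rose and the myosin chaperone UNC45A fell by 0.81 ± 0.24 on the log2 scale (edgeR adjusted p = 0.0230). In that list 1 gene had an unadjusted p under 0.05 in the higher direction, and DESeq2 and limma called 0 higher. The UNC45A call was lost without gCtl replicate 2 (edgeR adjusted p = 0.0617) or 3 (0.0613).

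Among the ezrin family and membrane scaffolds, 2 of 14 tested rose and 1 fell (15 listed, median 0.35). PROM1, a protein of membrane protrusions, rose (log2 fold change 0.90 ± 0.17 SE, edgeR adjusted p = 0.00221), and PDZK1, a scaffold for apical transporters, fell by 1.02 ± 0.20 on the log2 scale (edgeR adjusted p = 0.00278). Among brush border motors and terminal web proteins 5 of 15 tested rose and 1 fell (median 0.01). The spectrin SPTBN1 rose from 658 ± 114 to 1343 ± 237 CPM (SD, n = 5 each), with a log2 fold change of 1.03 ± 0.16 (SE, edgeR adjusted p = 0.00059). MYO1D, the class I myosin relative of MYO1A, fell from 89.6 ± 22.8 to 32.3 ± 9.89 CPM (SD, n = 5 each), by 1.47 ± 0.22 (SE) on the log2 scale (edgeR adjusted p = 0.000445). MYO1A and MYO1D thus moved in opposite directions in the same libraries.

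A list of 12 genes was drawn up around apical trafficking and microvillus inclusion disease, but not all of them belong there, SPINT2 and EPCAM among them. All 12 were tested, and 1 rose and 2 fell (median 0.14). MYO5B, which rose, and UNC45A, which fell, were also counted in lists above. MYO5B, the motor of apical recycling vesicles, rose (0.69 ± 0.14, edgeR adjusted p = 0.00397), a call lost with limma (0.57) and with the length trend removed (0.55), where the fold was below 1.5, and under glmTreat, and the protease inhibitor SPINT2 fell by 0.85 ± 0.21 on the log2 scale (edgeR adjusted p = 0.00989). Of 10 tested enterocyte transcription factors (15 listed), 3 rose and 1 fell (median 0.42). KLF4 is 1 of these 3, with a fitted log2 fold change of 2.01 ± 0.60 (edgeR adjusted p = 0.0243), but it held at most 7 counts per gCtl library and passed the filter only through 4 guide libraries, so it could be tested only because it was high there. Its call was lost under 5 of 23 alternatives, namely limma (1.02, adjusted p = 0.0647), glmTreat (adjusted p = 0.123) and edgeR without gCtl replicate 2, gCtl replicate 4 or g1 replicate 3 (adjusted p of 0.0644, 0.0606 and 0.058). SRF, which drives actin genes, fell by 1.18 ± 0.21 on the log2 scale (edgeR adjusted p = 0.00155).

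**Figure D2:**
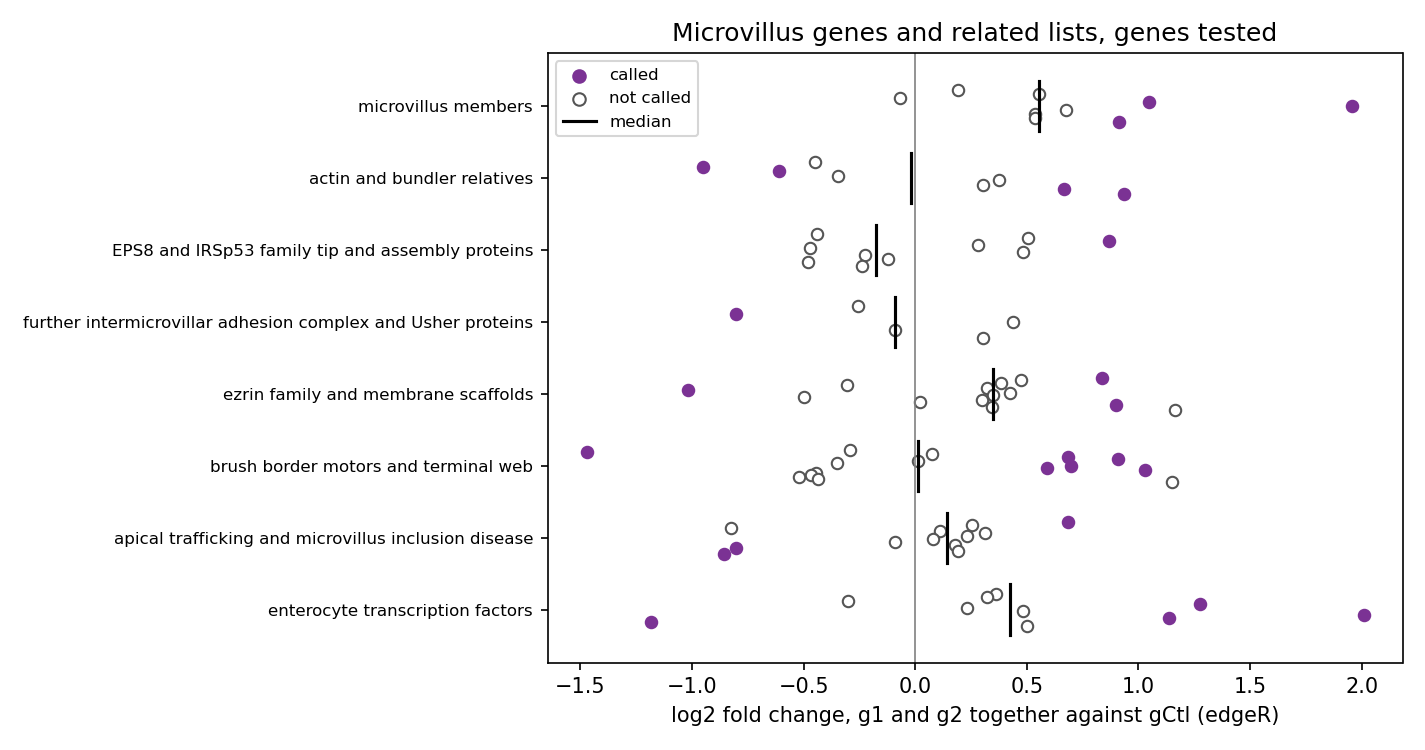
Log2 fold change of every tested gene with g1 and g2 together against gCtl, for the microvillus members and 7 related lists; filled points were called, open points were not, and the bar is the list's median. The members' median is 0.55, and the medians of the other lists run from -0.17 to 0.42.

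The tested genes most like a called member were found by the root-mean-square difference from it in log2(CPM + 1), centred on gCtl, over the 10 libraries. For MYO1A they were ZNF438 (0.230), NR2F1 (0.299) and AMDHD2 (0.331). For EPS8 they were EXOC6 (0.223), MGAT4A (0.231) and ACOX3 (0.240), and for ANKS4B ZNF587 (0.101), GSTCD (0.108) and NEMP2 (0.122). Among the members themselves ANKS4B and USH1C were the closest pair at 0.343, and CDHR5 was 0.371 from USH1C. Other tested genes were closer to both of the pair, for USH1C TLCD2 at 0.110. The distance from ANKS4B to MYO1A was 0.711, since MYO1A rose further.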

How the data were processed

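RNA of 10 Caco-2 libraries (5 gCtl, 3 g1, 2 g2, grouped by their labels) was sequenced by the authors as single-end QuantSeq, whose reads start near the polyA tail, and assigned to GENCODE transcripts on GRCh38 with kallisto. The deposited values are estimated counts per transcript, not normalized and not pooled. Here they were summed per gene (60554 genes) and rounded. Protein-coding genes with RPM above 3 in at least 20% of libraries (11640) were fitted with edgeR 4.0.16 (R 4.3.3; TMM, quasi-likelihood test), once with 2 groups and once with 3, with Benjamini-Hochberg adjustment over all of them. Exact permutation tests used scipy 1.17.1 with a pseudocount of 1. Intervals use the 95% level. Libraries of a group differed by more than counting noise (chi-square per degree of freedom 4.78 to 29.9), and their biological coefficient of variation was 0.238 in the fit with 2 groups and 0.205 in the fit with 3. The programs were tested on simulated data. Gene positions and transcript ends come from a GENCODE annotation in which ESPN and EPS8 have other gene versions than in the counted one, whose versions are printed. Promoters come from RefSeq (GRCh38.p14).

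The members and lists were chosen with earlier results of these data known. All members are named, and from each list the called gene with the largest increase and the largest decrease, and paralogs of members; 1 list is not reported here. Alternatives were DESeq2 1.42.0, limma 3.58.1 on log2(RPM + 1), other scalings and filters, glmTreat, no fold minimum, a length trend removed, ESPN summed with ESPNP, protein-coding transcripts only, separate fits and each library left out.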

Additional observations from a re-analysis of the deposited data

Results flagged for a closer look

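PLS1, the epithelial plastin, was flagged because its level differed between the guides themselves: it was higher in g2 than in g1 by 1.15 on the log2 scale (± 0.22 SE, edgeR adjusted p = 0.00781), with all 3 g1 libraries below and both g2 libraries above the 5 gCtl libraries. No gCtl library stood apart from the others of its group in any of the 9 members examined, where chance flags about 1 in 20 groups.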

How the results depend on the processing

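MYO1A was called higher with both guides together and with each guide under all alternatives run (log2 fold changes of 1.68 to 2.25, 1.40 to 1.94 and 2.10 to 2.62), and no called member changed direction under any. ANKS4B lost its calls with both guides together and with g1 under glmTreat, a test against a fold of 1.5, and under no other alternative run. That test called 1 member with both guides together (MYO1A), 2 with g1 (EPS8 and MYO1A), 2 with g2 (MYO1A and ANKS4B) and 0 between the guides (1 at an unadjusted p under 0.05; edgeR's main test and limma called 1), and 488, 506, 802 and 92 genes of all tested in place of 2232, 1947, 2756 and 579. DESeq2 called 2 members between the guides (PLS1 and MYO1A). Summing protein-coding transcripts only, chosen after seeing the data, left 2 calls with g1 (MYO1A and ANKS4B) and 360 genes called between the guides. Leaving out each library in turn gave 3 to 4 members called with both guides together, 3 to 5 with g1, 3 to 5 with g2 and 1 between the guides, a log2 difference of 0.29 to 0.63 for LHFPL3-AS2 and of -0.07 to 0.02 for MYO7B. Over all genes, g1 calls dropped to 1249 without g1 replicate 3, g2 calls to 1501 without g2 replicate 2, and calls between the guides to 267 without g1 replicate 1, to 314 without g1 replicate 2, and to 172 in a fit of g1 and g2 alone. Where 1 g2 library was left, it was assumed to vary like the other groups. The cause was not tested.

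Scaling by library totals moved the median of all genes with g2 to -0.16 (from -0.0017) and the share of calls that were higher from 45.1% to 26.7%; with both guides together it moved from 42.5% to 30.6%, and between the guides from 31.3% to 16.6%. USH1C with g2 then had an adjusted p of 0.0724, and 0.121 by limma. Without g1 replicate 2, CDHR2 passed the g1 thresholds (log2 fold change 1.49), but the 2 g1 libraries then left are those through which it passed the filter, so this is no support for a rise. Depth limits MYO7B, with at most 1 count per library, and CDHR2, with 5 to 59. No paired analysis was possible because the labels give no replicate numbers, and the numbers used here only name libraries.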
